A study of Mus musculus with 9 samples.

Results

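Apolipoproteins are the protein parts of lipoproteins, the particles that carry cholesterol and triglyceride in plasma. The liver makes most of them. Apolipoprotein B is the structural protein of very-low-density lipoprotein (VLDL) and stays on its particle, whereas the smaller apolipoproteins A, C and E move between particles, where they activate or inhibit enzymes or serve as ligands for uptake receptors. Here the 10 genes Apoa1, Apoa2, Apoa4, Apoa5, Apob, Apoc1, Apoc2, Apoc3, Apoc4 and Apoe were followed. They were chosen by name, from 32285 genes in the table, and all 10 were among the 12100 genes that entered the tests because they averaged 10 or more normalized counts.

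Liver RNA was sequenced from 3 groups of 3 libraries each: control, Dox (doxycycline) and Tc (tetracycline). All 9 libraries came from 4-week-old Tet-OFF mice, males by the study's account, which carried PB CAG-CreERT2 and, at Rosa26, LSL-tTA and tetO-Venus-ires-mCherry (PB stands for piggyBac and LSL for a loxP-flanked stop), and all groups had received tamoxifen, which activates Cre in every tissue where the ubiquitous CAG promoter is active. The controls received tamoxifen alone. Dox and Tc mice drank either drug at 2 mg/mL, in water with 10 mg/mL of sucrose, for 7 days, and whether the controls drank sucrose water was not given in the sources used here. Because tTA drives Venus and mCherry in the absence of either drug, the controls also differ from the drug groups in making these proteins, and the 2 differences cannot be told apart. The drugs differ in the position of a hydroxyl group on the shared ring system.

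The deposited values were counts divided by 1 size factor per library, and whole reads could be recovered for 100% of them, from 7426136 to 12183041 reads per library. The hepatocyte markers, which define the labelled tissue, were present in every library, and their sum ranged from 1328592 to 1816995 normalized counts in the controls, from 798186 to 933483 with Dox and from 974830 to 1525150 with Tc. In each group, library 3 tended to lie between the first and second libraries: this held for 46.0% of all tested genes in the controls, 78.1% with Dox and 50.7% with Tc, and for 5, 9 and 6 of the 10 apolipoprotein genes. It cannot be told from this whether the 3 libraries of a group come from 3 independent mice. P-values that use all of them may be too small, and results without libraries 3 are given beside the calls of the genes named. A gene described as called passed both limits below in limma with all 9 libraries, unless another tool is named. Dox library 2 stood apart, with the lowest value of all 9 libraries in 32.0% of tested genes and the highest in 33.4%.

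Among the 10 genes, Apoa4 alone passed both limits of the test, which were a difference of more than 2-fold and a p under 0.05 after Benjamini-Hochberg adjustment, and it did so with Dox against control. It fell by 2.50 on the log2 scale with Dox (limma, SE 0.45, n = 3 libraries per group). With Tc the Apoa4 difference from control was -1.37 on the same scale and did not pass. Apoc4 was lower and Apoa5 higher in every library of both drugs than in any control, by smaller amounts that did not pass the test. Such separation from control was common, at 33.3% of all tested genes with Dox and 30.7% with Tc, each drug taken alone. The other 7 of the 10 apolipoprotein genes differed from control by at most 0.50 with Dox and 0.42 with Tc. Their Dox libraries differed more among themselves than that.

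**Figure D1:**
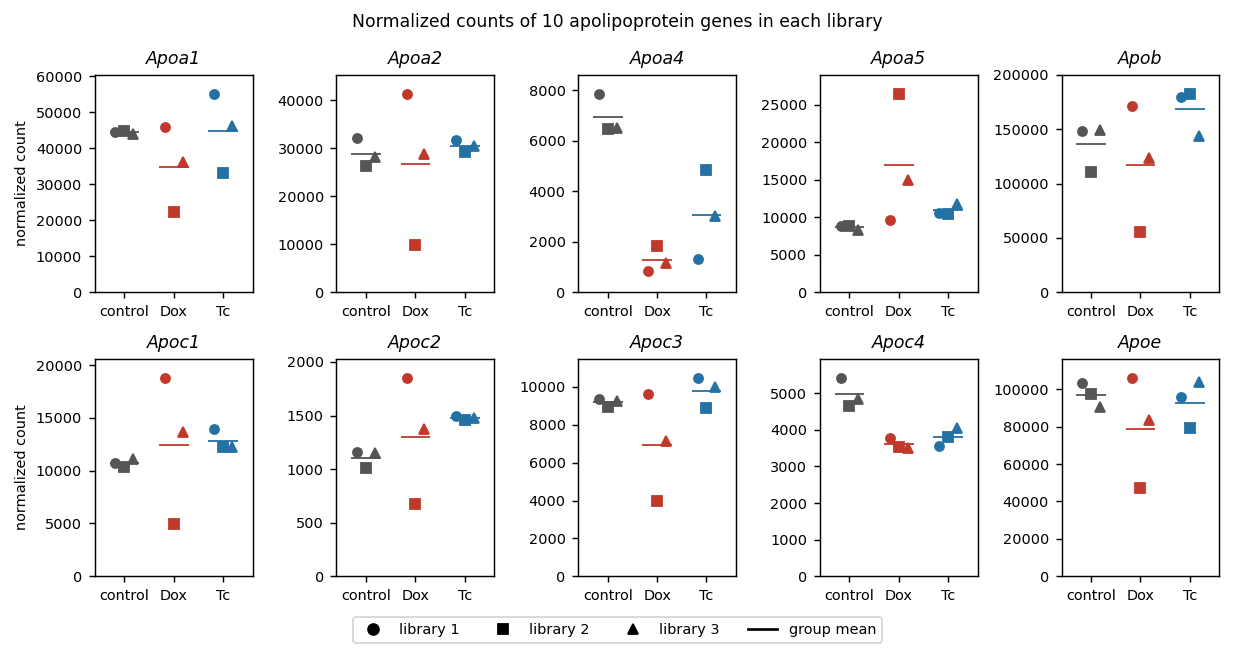
Normalized counts (linear axes from 0) of the 10 apolipoprotein genes in the 9 liver libraries, with circles, squares and triangles for libraries 1, 2 and 3 and a line at the group mean. Apoa4 lies between 6464 and 7841 in the controls and between 846 and 1835 with Dox, and the squares of Dox are low for most genes and high for Apoa5.

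In liver, the abundance of these transcripts differed over a wide range. Normalized counts divided by the length of the main transcript in kilobases gave the order Apoe, Apoa2, Apoa1, Apoc1, Apoc3, Apob, Apoc4, Apoa4, Apoa5 and Apoc2 in the controls. Apoe, the ligand for the LDL receptor and related receptors, had 68914 ± 4686 normalized counts per kilobase (SD, n = 3) and Apoc2, at the bottom, had 1524 ± 113. Neighbours in this order did not overlap between control libraries, except Apob (7969 to 10738 per kilobase) and Apoc4 (8638 to 10052). With Dox, Apoa4 had moved to the bottom of the order at 706 ± 278 per kilobase, where its libraries overlapped those of Apoc2, and with Tc it was also last, at 1680 ± 968, again overlapping Apoc2. Dividing by all annotated exons instead kept only 3 of the 10 genes in the same place in the controls. Apoc4 then came ninth, since its annotation holds a long additional transcript.

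Together the 10 genes took 3.35% ± 0.035 of all normalized counts in the controls (SD, n = 3), 3.20% ± 1.04 with Dox and 3.65% ± 0.361 with Tc. The Dox libraries, from 2.06% in library 2 to 4.09% in library 1, lay on both sides of the controls, so no difference in this total was larger than the spread with Dox. Apob made up the largest share of these counts in every library, from 31.5% in Dox library 2 to 49.9% in Tc library 2.

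The first gene described, Apoa4, codes for apolipoprotein A-IV, which is made in intestine and, in mice, also in liver, and is carried on chylomicrons and HDL. It lies on chromosome 9, in a cluster with Apoa1, Apoc3 and Apoa5 (GRCm38, chr9:46240696-46243459, plus strand). Apoa5, at the far end of the cluster (chr9:46268633-46271919, plus strand), codes for apolipoprotein A-V, which promotes triglyceride clearance by lipoprotein lipase. Apoc4 lies on chromosome 7 (chr7:19678083-19681479, minus strand), in the cluster with Apoc2, Apoc1 and Apoe. The sequences before the starts of these 3 genes are shown because they are the ones whose Dox libraries did not overlap the controls. They come from RefSeq (GRCm38.p6), which held 8 of the 10 genes and none for Apoc1 and Apoc3, and each ends before the earlier of the RefSeq and GENCODE starts. Capitals mark matches, on either strand, to the HNF4 pattern CAAAGNNCA, bound by a liver nuclear receptor, to the TATA box written as TATAAA, to the nuclear receptor core site written as AGGTCA or to the E-box written as CACGTG.
Apoa4, chr9:46240594-46240695, plus strand: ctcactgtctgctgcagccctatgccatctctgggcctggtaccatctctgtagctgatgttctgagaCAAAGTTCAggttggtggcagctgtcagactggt
Apoa5, chr9:46268383-46268632, plus strand: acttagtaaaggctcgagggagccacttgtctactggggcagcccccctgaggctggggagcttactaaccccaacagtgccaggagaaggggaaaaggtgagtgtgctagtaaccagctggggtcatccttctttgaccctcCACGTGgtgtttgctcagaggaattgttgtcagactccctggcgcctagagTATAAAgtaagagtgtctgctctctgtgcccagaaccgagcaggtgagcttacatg
Apoc4, chr7:19681480-19681710, minus strand: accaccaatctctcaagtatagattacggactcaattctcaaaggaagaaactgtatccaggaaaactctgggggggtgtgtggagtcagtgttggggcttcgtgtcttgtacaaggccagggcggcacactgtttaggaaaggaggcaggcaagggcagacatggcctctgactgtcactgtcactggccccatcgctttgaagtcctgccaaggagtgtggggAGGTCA

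In these stretches, Apoa4 held 1 HNF4 match and no match to the other 3 patterns, Apoa5 held 1 TATAAA and 1 CACGTG, and Apoc4 held 1 AGGTCA, in its last 6 bases. None of the matches overlapped another. Such matches were not particular to the genes shown. Among members not shown, Apob held 1 HNF4 match and 1 TATAAA in 221 bases. Apoa2 held 1 TATAAA and Apoc2 held 1 AGGTCA, each in 250 bases, and Apoa1 and Apoe held no match. The Apoa4 stretch ends 148 bases before the RefSeq start, because the GENCODE start lies that far upstream, and the bases between were not searched. Over the first 102 bases of all 32851 windows in the RefSeq table, which end equally far from their starts, the HNF4 pattern was found in 2.22%. Over the 250 bases used for Apoa5, TATAAA was found in 12.4% and CACGTG in 6.02% of windows, and over the 231 bases of Apoc4, AGGTCA in 13.1%. Matches of letters are a description and not sites of binding.

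Apoa4 had 7841, 6464 and 6508 normalized counts in the 3 control libraries. With Dox it had 846, 1835 and 1166, and with Tc 1315, 4827 and 3005. Every library of either drug lay below every control, while Dox and Tc overlapped, since Tc library 1 lay within the range of the Dox libraries. With Dox the level was 5.67-fold lower than in the controls (log2 fold change -2.50, 95% confidence interval -3.53 to -1.48, limma adjusted p = 0.0172). DESeq2 on the recovered reads, which called 9.4% of tested genes, gave -2.44 (adjusted p = 3.85e-06), and edgeR gave -2.45 (adjusted p = 0.0197). Without libraries 3 the size stayed at -2.51, but the limma call was lost (unadjusted p = 0.0124, adjusted p = 0.559), as it was for every gene in that fit, while DESeq2 kept it (-2.42, adjusted p = 0.0465), as 1 of the 1.2% of tested genes it called. The call was also lost by leaving out control library 1 (adjusted p = 0.0616), control library 2 (0.0668), control library 3 (0.0755) or Dox library 3 (0.0738), at sizes from -2.55 to -2.41.

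With Tc, Apoa4 differed from control by -1.37 (SE 0.45, 95% confidence interval -2.40 to -0.34), with an unadjusted limma p of 0.0147 and an adjusted p of 0.316. Between the drugs, given at the same concentration for the same time, the level with Dox minus that with Tc was -1.13 on the log2 scale (95% confidence interval -2.16 to -0.11, limma adjusted p = 0.205). This difference rested on which libraries entered. Without Dox library 2, DESeq2 gave -1.60 and called it (adjusted p = 0.0322), whereas limma did not (-1.43, adjusted p = 0.120), and without Tc library 2 the limma value was -0.71 (adjusted p = 0.438).

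The markers of several other liver cells moved in the same direction. The summed Kupffer cell markers ranged from 8304 to 15257 normalized counts in the controls, from 2279 to 8141 with Dox and from 3988 to 7750 with Tc, and 3 of 10 were called lower with Dox by limma. The endothelial cell markers summed to between 8882 and 9286 in the controls, between 4564 and 6198 with Dox and between 6966 and 7955 with Tc, also with 3 of 10 called lower with Dox by limma. Erythroid markers summed to between 1552 and 6098 in the controls, between 768 and 2500 with Dox and between 1347 and 2133 with Tc, with 4 of 7 tested called lower with Dox by limma. DESeq2 called 6, 2 and 6 markers of these 3 lists lower with Dox. Without libraries 3, limma called none, with an unadjusted p under 0.05 for 3, 5 and 3 markers, and DESeq2 called 1, 2 and 2. The part of these cells in the Apoa4 result was not tested, and in such bulk samples fewer cells of a type and less RNA per cell cannot be told apart. Of the enterocyte markers, 2 of 9 reached the mean for testing, neither was called, Cdh17, Muc2, Krt20 and Cdx2 stayed below 10 normalized counts in every library, and the list's sum overlapped between groups, from 116 to 234 in the controls and from 101 to 315 with Dox. Of the other lists, limma called 1 of 5 tested neutrophil markers lower and 1 of 3 tested cholangiocyte markers higher with Dox. Without libraries 3, limma called 0 of all 12100 tested genes, so the loss of these calls there says nothing about these markers. DESeq2 without libraries 3 called 1 neutrophil marker lower and 0 cholangiocyte markers. Limma called 0 of 10 stellate cell markers and 0 of 11 hepatocyte markers with Dox (2 of each had an unadjusted p under 0.05), and DESeq2 called 0 stellate cell markers and 3 hepatocyte markers (1 higher and 2 lower).

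The genes most like Apoa4 across the 9 libraries, by Pearson's r of log2 values among the 9379 genes averaging 50 or more, were Flt4 (r = 0.992), which codes for VEGF receptor 3 and is found on endothelial cells, Siglec1 (r = 0.988), a sialic acid receptor of macrophages, and Phldb1 (r = 0.984). Siglec1 had from 673 to 746 normalized counts in the controls, from 181 to 266 with Dox and from 257 to 546 with Tc. It thus shared with Apoa4 a higher value in Tc library 2 than in Tc library 1, and in Dox library 2 than in Dox library 1. These correlations describe 9 libraries of 3 groups, whose values share the distance between controls and drug groups, and libraries 3 are not clearly independent. Over the 6 libraries numbered 1 and 2, Flt4 and Siglec1 were still among the 3 most like Apoa4, and Dpysl3 took the place of Phldb1.

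Apoa5 had 8801, 8821 and 8330 normalized counts in the controls, 9560, 26358 and 14941 with Dox, and 10508, 10420 and 11751 with Tc. Every drug library was above every control, at 1.11 times the control mean in Dox library 1 and at 3.05 times the control mean in Dox library 2. The log2 fold change was 0.85 with Dox (SE 0.33, 95% confidence interval 0.11 to 1.59, limma adjusted p = 0.131) and 0.33 with Tc (95% confidence interval -0.41 to 1.07, adjusted p = 0.764). Without Dox library 1 the Dox value was 1.20 and passed both limits (limma adjusted p = 0.0174), and without Dox library 2 it was 0.47 (adjusted p = 0.129). DESeq2 gave 0.96 with Dox at an adjusted p of 0.0275, a size under the fold limit, and without libraries 3 neither tool reached 0.05 (adjusted p = 0.629 by limma and 0.495 by DESeq2). Apoa5 and Apoa4 are neighbouring members of the cluster, and the ratio of Apoa5 to Apoa4 within a library, which no scaling between libraries can change, was 1.12 to 1.37 in the controls, 11.3 to 14.4 with Dox and 2.16 to 7.99 with Tc. The 3 ranges did not overlap. The gap between controls and drugs follows from the values above, since Apoa4 was lower and Apoa5 higher in every drug library. How many other pairs of genes have such ranges was not counted, here or for the ratios below.

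Apoc4, whose protein is a minor part of VLDL and whose gene sits between Apoc2 and Apoc1, had the narrowest range of the 10 genes over all 9 libraries, 0.63 on the log2 scale. It had 5408, 4647 and 4854 normalized counts in the controls, 3780, 3540 and 3498 with Dox, and 3562, 3809 and 4060 with Tc. All 6 drug libraries lay below the controls, Dox library 2 included. The log2 fold change was -0.46 with Dox (SE 0.13, limma unadjusted p = 0.00681, adjusted p = 0.0618) and -0.38 with Tc (SE 0.13, unadjusted p = 0.0175, adjusted p = 0.333). DESeq2 put both below an adjusted p of 0.05 (0.000429 with Dox and 0.019 with Tc), at sizes under the fold limit, and without libraries 3 neither tool did. Apoc4 and Apoc2 both overlap a readthrough gene annotated on the same strand in GENCODE M21. That gene has no row among the 32285 genes of the table. Whether it took part in the counting, and so left shared reads uncounted, is not known.

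**Figure D2:**
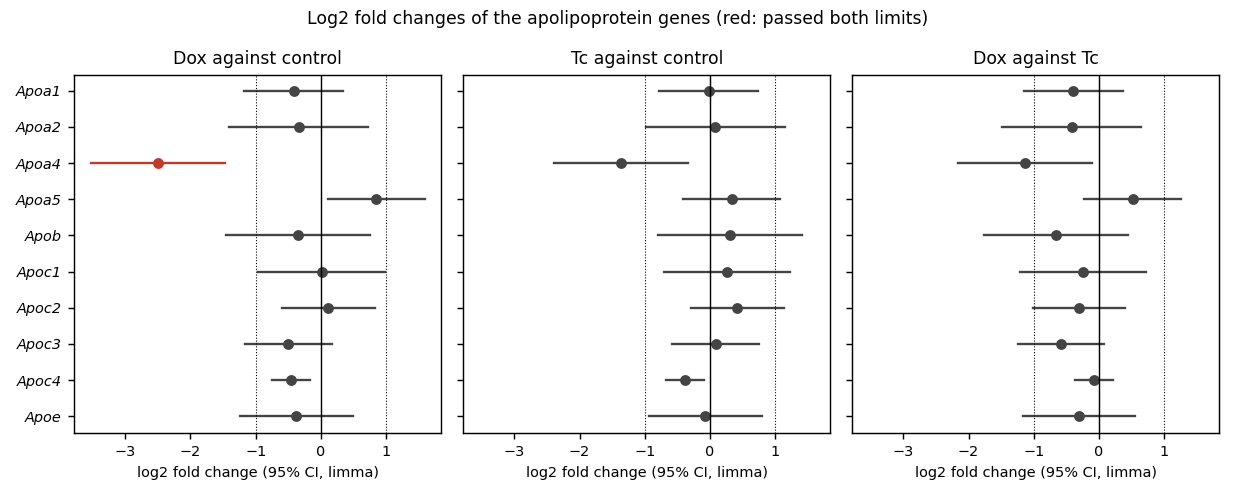
Log2 fold changes from limma (points) with 95% confidence intervals (bars) for the 10 apolipoprotein genes in the 3 comparisons; dotted lines mark a fold of 2 and red marks a gene past both limits. Apoa4 with Dox against control, at -2.50, is the only red point, and the Apoc4 intervals are the narrowest.

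Against control, 1 of the 10 genes (Apoa4) was called with Dox, beside 5.0% of all 12100 tested genes. By an adjusted p under 0.05 without the fold limit it was again 1 of 10, beside 8.41% of all genes, and by DESeq2 it was 3 of 10 (Apoa4, Apoa5 and Apoc4), beside 17.8%. An unadjusted p under 0.05 was reached by 3 of 10 (Apoa4, Apoa5 and Apoc4), beside 29.1%, and the same 3 had groups that did not overlap, beside 33.3%. The median log2 fold change of the 10 genes was -0.37, against 0.00 for all tested genes. These shares lie near those of all tested genes and are no result about the 10 genes together. With Tc, 0 of 10 were called by limma, DESeq2 or edgeR, beside 0.165% of all genes by limma, 2 of 10 (Apoa4 and Apoc4) had an unadjusted limma p under 0.05, beside 11.7%, and 5 of 10 had groups that did not overlap (Apoa4 and Apoc4 lower, Apoa5, Apoc1 and Apoc2 higher), beside 30.7%. The median log2 fold change with Tc was 0.08, against 0.00 for all tested genes. The controls of the 2 comparisons are the same libraries.

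For Dox against Tc, 0 of 10 were called by limma, DESeq2 or edgeR, beside 0.215% of all genes by limma, 1 (Apoa4) had an unadjusted limma p under 0.05, beside 21.7%, and none had groups that did not overlap, beside 24.6%. The median difference, Dox minus Tc, was -0.35, against -0.02 for all tested genes. The intervals show how little a lack of calls says here: they ran from -0.38 to 0.22 for Apoc4, the narrowest, and from -1.77 to 0.44 for Apob. Fits with the library number as a block, with which Dox and Tc deviated together, changed none of these calls.

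Of the structural protein and the main HDL proteins, Apob had 147946, 111037 and 149622 normalized counts in the controls, 171471, 55327 and 123598 with Dox, and 179831, 182120 and 143451 with Tc. Dox libraries 1 and 2 lay on either side of all controls. Apoa1, the main protein of HDL and the activator of LCAT, had 44657, 44677 and 44037 in the controls, 45870, 22250 and 36168 with Dox, and 55003, 33062 and 46195 with Tc. The coefficient of variation was 0.819% in the controls, and the libraries of both drugs lay on either side of them. Apoa2, the other major HDL protein, had 32212, 26336 and 28073 in the controls, 41217, 9832 and 28852 with Dox, and 31726, 29130 and 30457 with Tc. The limma differences from control were -0.36, -0.42 and -0.34 with Dox for Apob, Apoa1 and Apoa2 (adjusted p from 0.433 to 0.652), and 0.31, -0.02 and 0.08 with Tc (adjusted p from 0.860 to 0.990).

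Apoe, made by hepatocytes and also by Kupffer cells, had 103510, 97265 and 90320 normalized counts in the controls, 105815, 47037 and 83560 with Dox, and 95657, 79191 and 103864 with Tc. The groups overlapped, and the differences were -0.38 with Dox (limma adjusted p = 0.537) and -0.07 with Tc (adjusted p = 0.969). The summed Kupffer cell markers were lowest in Dox library 1, where Apoe was highest of all 9 libraries. The part of Kupffer cells in the Apoe level was not tested.

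The remaining apolipoproteins C act on triglyceride clearance: Apoc2 codes for the activator of lipoprotein lipase, Apoc3 for an inhibitor of it, and Apoc1 for an inhibitor of lipoprotein uptake. Apoc2 had 1162, 1014 and 1148 normalized counts in the controls, 1847, 675 and 1373 with Dox, and 1500, 1462 and 1478 with Tc. The Tc libraries differed by 1.28% (coefficient of variation) and all lay above the controls, at a log2 fold change of 0.42 (SE 0.31, 95% confidence interval -0.29 to 1.13, limma adjusted p = 0.670). The fit uses 1 spread per gene for all 3 groups, so the Dox libraries enter this interval. Without Dox library 2 the SE for Tc was 0.125 (adjusted p = 0.0942), and the Dox difference was 0.53, with an adjusted p of 0.0322 at a size under the fold limit. Apoc1 had 10695, 10392 and 11136 in the controls, 18743, 4922 and 13664 with Dox, and 13986, 12230 and 12271 with Tc. Its Dox difference was 0.01 with all libraries and 0.58 without Dox library 2 (limma adjusted p = 0.0527). Apoc3 had 9368, 8917 and 9257 in the controls, 9639, 3981 and 7148 with Dox, and 10452, 8882 and 9976 with Tc. Its Dox difference of -0.50 (adjusted p = 0.289) was -0.15 without Dox library 2.

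**Figure D3:**
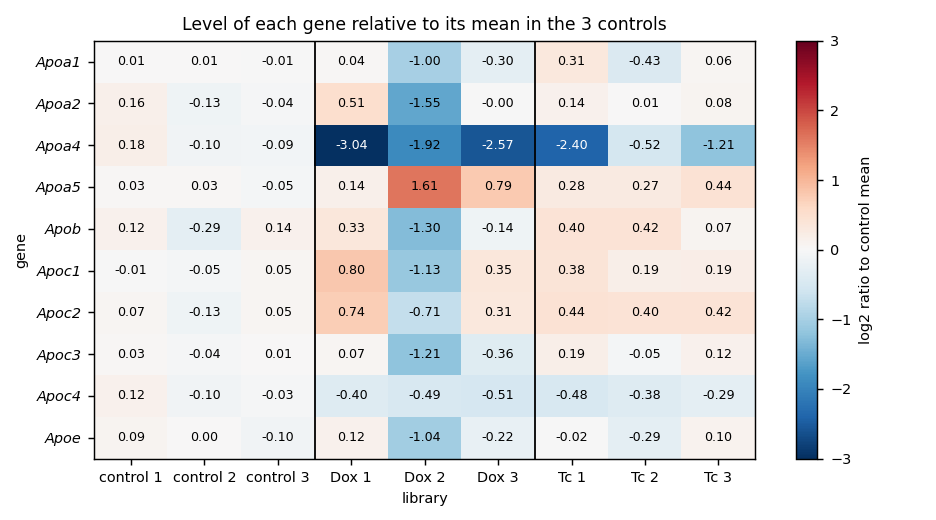
Log2 ratio of each apolipoprotein gene (rows) to its mean in the 3 controls, in each of the 9 libraries (columns); red is above and blue below the control mean. Dox library 2 is blue for every gene but Apoa5, at ratios from 0.264 to 0.712, and Apoa4 is blue in all 6 drug libraries.

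Dox library 2 decided several of these values. It had the lowest level of all 9 libraries for 7 of the 10 genes (Apoa1, Apoa2, Apob, Apoc1, Apoc2, Apoc3 and Apoe), beside 32.0% of all tested genes, at 0.341 to 0.609 times the control mean, and the highest level for Apoa5. Dox library 1, by contrast, had Apoc1 at 1.75 and Apoc2 at 1.67 times the control mean. Between Dox libraries 1 and 2, 9 of the 10 genes differed over 2-fold, all but Apoc4, beside 35.2% of all tested genes. In the controls this was 0 of 10, beside 4.84%, and with Tc 1 of 10 (Apoa4), beside 8.45%. The median SD of the log2 values was 0.691 for the 10 genes with Dox, against 0.377 for all tested genes, while in the controls it was 0.104 against 0.160 and with Tc 0.116 against 0.182. By this measure the 10 genes varied less than the median tested gene in control and Tc livers and more in the Dox livers. The tested genes reach down to an average of 10 normalized counts, and no genes of similar abundance were compared. The difference is therefore not shown to be a trait of the 10 genes.

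Within each library, genes of 1 cluster kept their proportions to different degrees. Apoc3 was 0.200 to 0.210 times Apoa1 in the controls, 0.179 to 0.210 with Dox and 0.190 to 0.269 with Tc, although both genes varied over 2-fold between Dox libraries. Such likeness was not particular to the cluster. Over the 9 libraries, Pearson's r of log2 values between Apoc3 and Apoa1 was 0.925. With Apoe, Apoa2 and Apob, which lie on other chromosomes, it was 0.945, 0.927 and 0.922. Apoa4 was 0.145 to 0.176 times Apoa1 in the controls, 0.0184 to 0.0825 with Dox and 0.0239 to 0.146 with Tc. On chromosome 7, Apoc2 was 0.0104 to 0.0127 times Apoe in the controls and 0.0144 to 0.0175 with Dox, so the ranges did not overlap, and 0.0142 to 0.0185 with Tc. By the rule of likeness over 9 libraries, the genes nearest to the others were Faah for Apoa1 (r = 0.977), Osbpl8 for Apoa2 (0.993), Hira for Apoa5 (0.996), AI182371 for Apob (0.992), Akr1c13 for Apoc1 (0.993), Sesn3 for Apoc2 (0.993), 9030622O22Rik for Apoc3 (0.993), Odf3b for Apoc4 (0.981) and C330007P06Rik for Apoe (0.990). Only Faah kept its place over the libraries numbered 1 and 2.

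The other genes of lipoprotein metabolism were described by 5 lists with 89 genes in all, of which 86 were tested. With Dox, limma called 0 of the 86 higher and 2 lower, beside 5.0% of all tested genes, and DESeq2 called 5 higher and 7 lower, beside 9.4%. Of the 2 called by limma, the first was Apom, which codes for apolipoprotein M, the HDL protein that carries sphingosine 1-phosphate. It had 3142, 2394 and 2950 normalized counts in the controls, 1540, 997 and 1401 with Dox, and 2197, 2765 and 2273 with Tc. Each Dox library lay below every other library, at a log2 fold change of -1.12 against control (SE 0.20, limma adjusted p = 0.0160) and -0.89 against Tc (adjusted p = 0.0957). The second was Pcolce2, whose product promotes the processing of pro-apolipoprotein A-I, with 45.5, 54.0 and 35.6 in the controls, 15.8, 11.5 and 14.1 with Dox, and 15.6, 31.5 and 28.6 with Tc. It fell by 1.63 on the log2 scale with Dox (SE 0.31, adjusted p = 0.0208). Without libraries 3 the sizes were -1.15 for Apom and -1.80 for Pcolce2, and neither was called by limma (adjusted p = 0.559 for both) or by DESeq2 (adjusted p = 0.138 and 0.165). With Tc and for Dox against Tc, limma called 0 of the 86 genes. An unadjusted limma p under 0.05 was reached by 10 with Tc, beside 11.7% of all tested genes, and by 26 for Dox against Tc, beside 21.7%. DESeq2 called 2 with Tc, beside 1.56% of all tested genes, and 9 for Dox against Tc, beside 4.98%. The median log2 fold changes of the 86 genes were -0.07, 0.07 and -0.25 for Dox, Tc and Dox against Tc.

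By list, 10 of 12 other apolipoproteins were tested. Their median was -0.50 for Dox and 0.23 for Tc, and Apom was the one called by limma, while DESeq2 called 3 lower with Dox and 2 lower for Dox against Tc. Of 17 genes of lipoprotein assembly and secretion, limma called none and DESeq2 called 1 higher with Tc and 1 lower for Dox against Tc. The furthest was Sort1, the sorting receptor sortilin, at 1.57 with Tc (639 against 210 normalized counts in the group means, adjusted p = 0.296 by limma and 0.0315 by DESeq2). Of 13 genes of HDL formation and remodelling, Pcolce2 was called by limma, and DESeq2 called 2 lower with Dox. Of 17 genes of uptake and triglyceride clearance, limma called none, and DESeq2 called 4 higher and 2 lower with Dox, 1 higher with Tc, and 3 higher and 1 lower for Dox against Tc. The furthest there was Angptl8, an inhibitor of lipoprotein lipase induced by feeding, which had 1684, 61.0 and 1072 with Dox, against 117.5 to 177 in the controls and 43.2 to 70.3 with Tc, and differed by 3.03 between Dox and Tc in limma (adjusted p = 0.168) and by 3.98 in DESeq2 (adjusted p = 5.72e-05). Of 29 tested transcription factors of apolipoprotein genes, limma called none, and DESeq2 called 1 higher with Dox and 2 higher for Dox against Tc. The furthest was Ppargc1a, the fasting-induced coactivator PGC-1 alpha, with 1463 in Dox library 2 and 82.3 to 604 in the other 8 libraries (1.80 with Dox, limma adjusted p = 0.176, and 2.36 by DESeq2, adjusted p = 0.00757). Without libraries 3, neither tool called Sort1, Angptl8 or Ppargc1a. Dox library 2 was thus the lowest of the Dox libraries for Angptl8 and the highest of all for Ppargc1a.

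Neighbours of both gene clusters were tested to see whether the chromosome region moved with its apolipoprotein genes. Of the 10 genes next to the chromosome 9 cluster and the 9 tested next to the chromosome 7 cluster, none was called in any comparison by limma, while with Dox 7 of these 19 had an unadjusted p under 0.05, beside 29.1% of all tested genes. DESeq2 called 1 gene next to each cluster with Dox, Tagln (adjusted p = 0.0344) and Tomm40 (adjusted p = 0.00739), and without libraries 3 it called neither. The medians with Dox were -0.07 and 0.30. The furthest on chromosome 9 was Tagln, a smooth muscle protein (-1.01 with Dox, limma adjusted p = 0.0648), and on chromosome 7 it was Tomm40, a mitochondrial import channel next to Apoe (1.27 with Dox, adjusted p = 0.0887), which had 1402 normalized counts in Dox library 2 against 281 to 692 elsewhere. Apoe itself was lowest in that library.

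**Figure D4:**
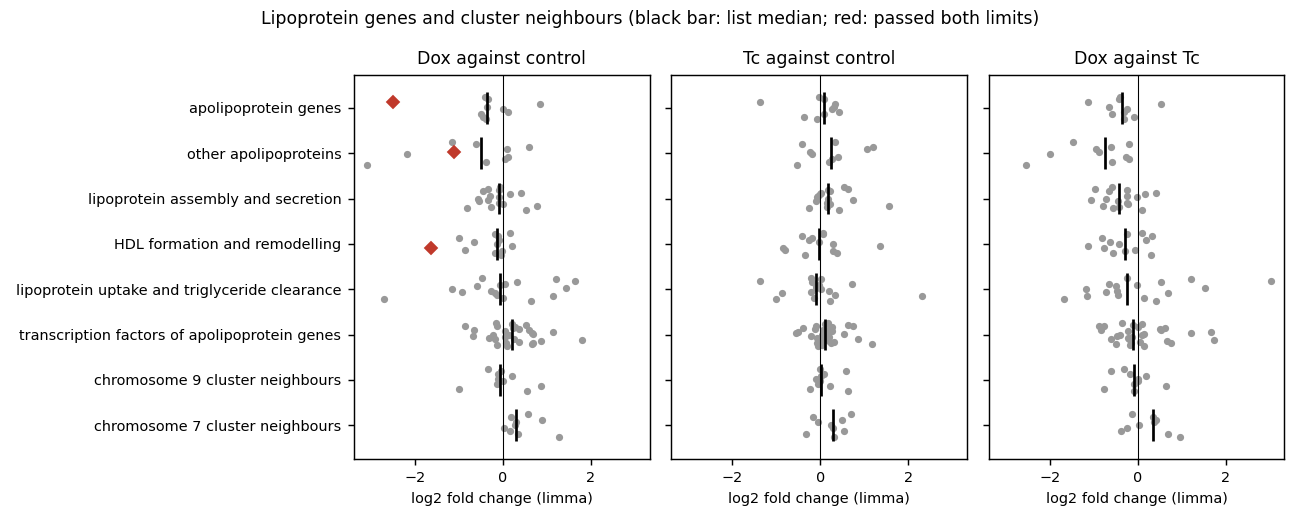
Log2 fold changes from limma of the apolipoprotein genes, the 5 lipoprotein lists and the neighbours of both clusters in the 3 comparisons; each point is a gene, black bars are list medians, and red diamonds passed both limits. Apoa4, Apom and Pcolce2 with Dox are the only red points.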

How the data were processed

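Liver RNA-seq of 9 mouse libraries (3 control, 3 Dox, 3 Tc) was used. By the study's methods, the authors trimmed single-end reads with cutadapt, aligned them to mm10 with STAR 2.7.11ac, counted uniquely mapped reads on GENCODE M23 genes with HTSeq 2.0.5 and normalized with DESeq2 1.42.0. The strand setting was not given in the sources used here. The labels and the methods name different RNA extraction kits. The deposited signal is each gene's count over its library's size factor. Of 32285 identifiers, 32158 had a symbol, and positions are GENCODE M21 (GRCm38).

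Groups and library numbers are those of the sample labels. Log2(normalized count + 1) was fitted with limma 3.58.1 (R 4.3.3, with trend) in 1 model of 9 libraries over 12100 genes averaging 10 or more, with Benjamini-Hochberg adjustment over all of them. Calls needed a fold change over 2 and an adjusted p under 0.05. Whole reads, recovered within 0.01 of a whole number for 100% of values, entered alternative tests in edgeR 4.0.16 and DESeq2 1.42.0. Counts were also simulated with the same spread for all genes and groups. For Dox against control, limma recovered 200 of 200 well-expressed genes changed 4-fold, with 5 false calls. In the real libraries the median SD of log2 values over all tested genes was 0.377 with Dox and 0.160 in the controls. The recovery is therefore a check of the code and no measure of the errors in these data. Deviations from the group mean correlated between Dox and Tc libraries of the same number in the labels (r = 0.287, 0.321 and 0.182), so a block for that number was among the alternatives; those of control libraries did not (r from -0.081 to 0.055). The correlations are not independent where libraries 3 lie between the others. The study describes the libraries of a group as independent biological replicates. The labels used here do not say that they were separate mice. The p-values set group differences against the spread between libraries, and would be too small if libraries of a group shared mice.

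The members and gene lists were chosen with earlier results of these data known. Named were all 10 genes, called genes of each lipoprotein or neighbour list (or the gene with the largest change where none was called), 3 genes most like Apoa4 and 1 most like each other gene. Alternatives covered pseudocount, filter, scaling, tool, groups in the fit, a replicate block and libraries left out. Depth was at least 7426136 reads, and counting error is small for the 10 genes, which had 675 or more normalized counts in every library. It is not small for genes near the filter. Pcolce2, with 11.5 to 15.8 normalized counts with Dox, is among these.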

Additional observations from a re-analysis of the deposited data

How the results depend on the processing

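Of the members' log2 fold changes, that of Apoa4 with Dox stayed negative under all 21 alternatives, from -2.80 to -2.24, and was called under 16 of them. Other pseudocounts, filters, edgeR, fits of the 2 groups alone and the replicate block changed no member's direction or call, and the block (Apoa4 with Dox at -2.50) moved no count of members called. With the same total for every library, the median of all genes shifted from 0.00 to 0.17 for Dox against control and from -0.02 to 0.16 for Dox against Tc, the share of calls that were higher with Dox went from 22.8% to 42.9% (245 higher and 326 lower, against 138 and 467), and Apoc4 turned to 0.10 for Dox against Tc. Turned signs were otherwise 0.0006 for Apoa1 with Tc by DESeq2, -0.13 for Apoc1 with Dox without libraries 3, and, by DESeq2 without Dox library 2, an alternative chosen after seeing the data, 0.26 for Apoa2 and 0.10 for Apob with Dox, and 0.20 for Apoa2, 0.33 for Apoc1, 0.12 for Apoc2 and 0.0245 for Apoe for Dox against Tc. The cause was not tested.

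Members called with Dox were 1, but 0 by limma without libraries 3 and 0 to 2 with 1 library left out. For Dox against Tc they were 0, but 1 by DESeq2 without Dox library 2. Lipoprotein genes called with Dox were 2, but 1 with a mean of at least 50, where Pcolce2 was not tested, 12 by DESeq2, 0 by limma and 1 (Bmp1) by DESeq2 without libraries 3, 12 by DESeq2 without Dox library 2, and 0 (without control library 1 or 3 or Dox library 3) to 13 (without Dox library 1) with 1 library left out. With Tc they were 0, but 2 by DESeq2, 7 with only the groups compared, 7 by DESeq2 without Dox library 2 and 0 to 7 (without Dox library 2) with 1 library left out. For Dox against Tc they were 0, but 9 by DESeq2, 6 by DESeq2 without Dox library 2 and 0 to 12 (without Dox library 1) with 1 library left out. With 1 library left out, the members' median ran from -0.64 to 0.03 with Dox (without Dox library 1 and 2), from 0.04 to 0.17 with Tc and from -0.63 to -0.02 for Dox against Tc. Signs also turned there, within these ranges: with Dox, Apoa2 from -0.77 to 0.26, Apob from -0.71 to 0.11, Apoc1 from -0.39 to 0.58 and Apoc2 from -0.20 to 0.53; with Tc, Apoa1 from -0.19 to 0.18 and Apoe from -0.15 to 0.041; and for Dox against Tc, Apoa2 from -0.85 to 0.18, Apoc1 from -0.64 to 0.32, Apoc2 from -0.62 to 0.11 and Apoe from -0.56 to 0.0265. Of 12 genes named as most like a member, 3 were kept over the libraries numbered 1 and 2, and 3 of 10 places in the order per kilobase were kept with all annotated exons.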

Other observations

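Among the lipoprotein genes, 6 passed an adjusted limma p under 0.05 with Dox at sizes under the fold limit, and were named after their values were seen. Without libraries 3 none of the 6 had an adjusted p under 0.05 in limma (from 0.559 to 0.584), and 1 had in DESeq2 (Bmp1, adjusted p = 0.0292, past the fold limit there at -1.01). Bmp1, a protease that processes pro-apolipoprotein A-I, had 1793, 1827 and 1711 normalized counts in the controls, 912, 893 and 872 with Dox, and 1361, 1705 and 1636 with Tc, a Dox difference of -0.99 (adjusted p = 0.00744). Its Dox libraries differed little from each other, unlike those of most apolipoprotein genes. Lsr, a lipoprotein receptor of liver (-0.93), and Foxa2, a hepatocyte transcription factor (-0.87), were also lower. Rora (0.85), Nr1d2 (0.68) and Creb3l3 (0.53), which code for nuclear receptors and for CREBH, a regulator of Apoa4 and Apoc2, were higher. Creb3l3 had 1829, 1773 and 1802 in the controls, 2840, 2306 and 2682 with Dox, and 2867, 2506 and 3021 with Tc, so that it was above the controls in all 6 drug libraries, in which Apoa4 was below them. Whether the levels of these genes are linked was not tested, and transcript levels do not show the activity of CREBH.

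Saa4 and Apon, both chosen after their values were seen, had the furthest differences among the other apolipoproteins without passing the limits in limma. DESeq2 called 3 of that list lower with Dox. Saa4, a serum amyloid A protein of HDL, had 2885, 138 and 1814 normalized counts with Dox against 6205 to 9256 in the controls (limma adjusted p = 0.0743). Apon had 2229, 305 and 1540 with Dox against 4585 to 4624 in the controls (adjusted p = 0.0630). In both, Dox library 2 was the lowest of all 9 libraries.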
